A study of Arabidopsis thaliana with 6 samples.

Results

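The FT and TFL1 family of Arabidopsis thaliana comprises 6 genes for small phosphatidylethanolamine-binding proteins, and this account follows the binding of SWINGER (SWN) at and around them. The members were taken by name and locus tag: FT (AT1G65480), TSF (AT4G20370), MFT (AT1G18100, listed as E12A11 in the gene table), TFL1 (AT5G03840), ATC (AT2G27550) and BFT (AT5G62040). They are 6 of 27444 protein-coding nuclear genes. SWN is a histone methyltransferase of Polycomb repressive complex 2. Seedlings 14 days old carried pSWN:SWN-GFP, a fusion driven by the SWN promoter, in a swn mutant, so every SWN-GFP signal came from the transgene. The first group also carried val1 and val2 mutations and is called SWN-GFP val1 val2, with 2 libraries, and the second had VAL1 and VAL2 intact and is called SWN-GFP, with 2 libraries. The labels name no alleles and no tissue beyond the seedling, so each peak is a sum over the cell types of a whole plant. Chromatin was precipitated with a GFP antibody and sequenced. The 2 input libraries, 1 of each genotype, entered no comparison.

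FT is made in leaf veins and moves to the shoot tip, where it joins the bZIP factor FD and switches on genes of the floral meristem. TSF acts in parallel with FT, while TFL1 competes with FT for FD and keeps the shoot tip indeterminate. ATC and BFT are relatives of TFL1 that also delay flowering, and MFT acts in seeds, where it modulates germination in response to abscisic acid. FT is a known Polycomb target with distal enhancers on both sides of the gene, and VAL1 and VAL2 are B3-domain proteins that bind DNA and recruit Polycomb complexes. The title of the series names this recruitment, and the comparison asks where SWN is found at these genes without VAL1 and VAL2.

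There were 9177 and 9618 peaks in the libraries of SWN-GFP val1 val2, of which 15 and 10 lay on or within 5 kb of a family gene. In SWN-GFP there were 8189 and 8666, of which 10 and 11 did. Read totals are unknown, and the lists of the double mutant were the longer ones. Where a list has no peak, the signal did not pass the threshold of the peak caller, which does not show that SWN was absent. A gene or region is called kept when all 4 lists had a peak in it, lost when it had one in each SWN-GFP list but in none of the double mutant, and gained in the reverse case. Covered length is the number of bp under peaks. Fold is the authors' enrichment of the peak summit over local background, and its percentile is the rank of that peak among all peaks of its own list. With 2 libraries against 2, the exact two-sided permutation test cannot give a p below 0.333, so no comparison of single values could pass 0.05. Nothing in the labels tells whether replicates were separate batches of seedlings, and the spread between them may be technical.

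On their gene spans, TSF, TFL1 and ATC were kept, MFT was lost, FT had peaks in 1 SWN-GFP val1 val2 library only, and BFT had none in any list. That is 3 of 6 kept, against 12.6% of protein-coding genes, 1 of 6 lost, against 2.70%, and 0 of 6 gained, against 3.61%. With 5 kb added on either side, FT and BFT joined as gained and the other 4 calls stayed. In that window 3 of 6 were kept, against 40.2% of protein-coding genes, 1 was lost, against 4.99%, and 2 were gained, against 6.26%. The members therefore went in different directions, which the map of peaks around each gene shows.

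**Figure D1:**
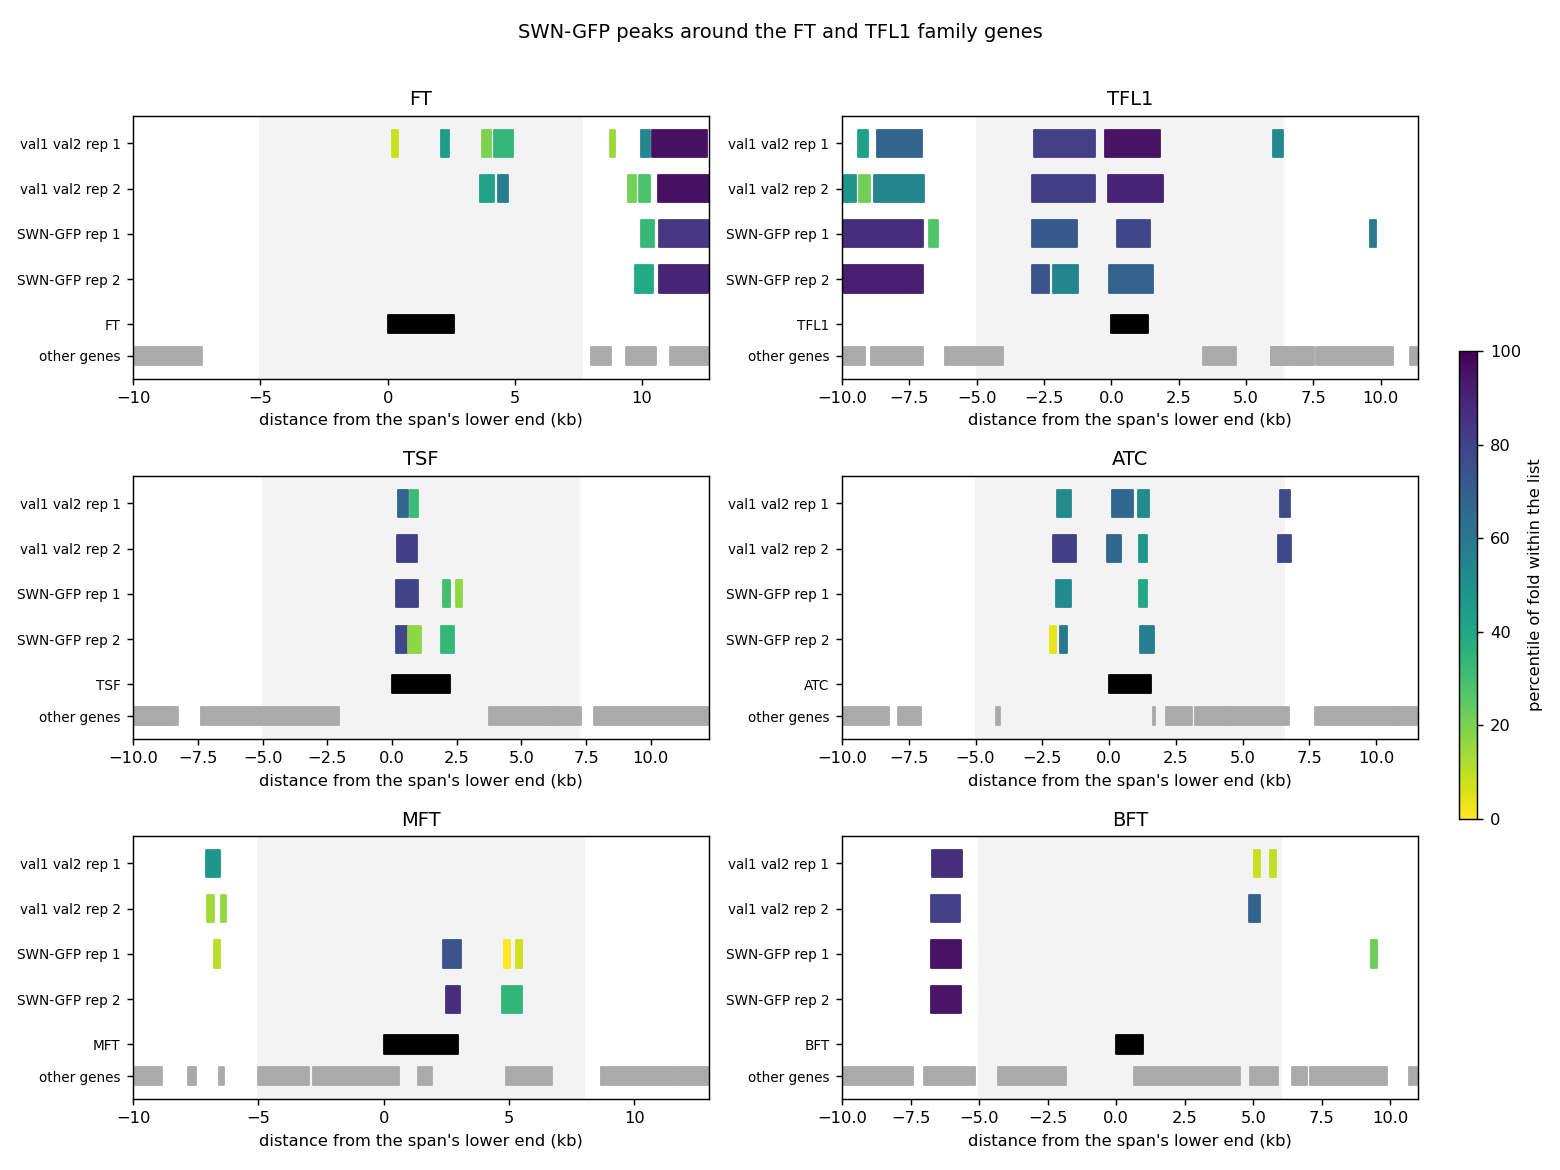
Peaks of the 4 lists around each family gene, with distance from the lower-coordinate end of the gene span in kb on the x axis and 1 row per library (val1 val2 is SWN-GFP val1 val2, rep is replicate). Bars are peaks, coloured by the percentile of their fold within their own list and clipped at the plot edge. Black bars are the family gene, grey bars all other genes of the table, and the grey background is the window of 5 kb on either side. Within that window, FT and BFT have peaks of the double mutant only, MFT has SWN-GFP peaks only, and TFL1 has wide peaks in all 4 lists.

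FT, the mobile flowering signal, had no peak within 5 kb of its span in either SWN-GFP list and had peaks on the higher-coordinate side in both SWN-GFP val1 val2 lists. Of the span of 2627 bp, 519 bp lay under peaks in SWN-GFP val1 val2 replicate 1, whereas 0 bp did in its replicate 2 and in both SWN-GFP libraries. The peaks on the span lay at chromosome 1, 24331545 to 24331770 and 24333483 to 24333775, with folds of 2.24 and 2.82. The call on the span thus rests on that 1 library: without it FT had no peak, and without SWN-GFP val1 val2 replicate 2 it was gained.

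Beyond the span the replicates of the double mutant had peaks at the same places. The first gained region held peaks at 24335070 to 24335434 in SWN-GFP val1 val2 replicate 1 and 24335016 to 24335539 in replicate 2. They began 1071 and 1017 bp past the end of FT. The second held peaks at 24335564 to 24336319 and 24335697 to 24336089. All 4 peaks lay between FT and the next gene of the table and overlapped none. They were not strong: folds were 2.43 and 2.67 in the first region, at percentiles 19.6 and 42.0, and 2.63 and 3.00 in the second, at percentiles 33.9 and 57.3. All of them remained when the lists were cut to equal length, and none had a fold of 4 or more. Over the span with 5 kb on either side, FT had 1640 and 917 bp under peaks in SWN-GFP val1 val2 and 0 bp in each SWN-GFP library (exact permutation p = 0.333). On the lower-coordinate side, the nearest peaks were 14965 and 14723 bp away in SWN-GFP val1 val2 and 12853 and 12771 bp away in SWN-GFP.

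TSF, the close relative of FT, carried a peak near the lower-coordinate end of its span in all 4 lists and a second one near the other end in the SWN-GFP lists only. The kept region lay at chromosome 4, 11000927 to 11001894. Its strongest peak had a fold of 3.49 and 4.29 in SWN-GFP val1 val2 and 4.81 and 4.46 in SWN-GFP. The percentiles, 67.5 and 81.7 against 80.5 and 78.6, overlapped between genotypes. The lost region held SWN-GFP peaks at 11002744 to 11002992 in replicate 1 and 11002650 to 11003151 in replicate 2, with folds of only 2.70 and 2.65. SWN-GFP replicate 1 had a further peak of 228 bp, 239 bp past the gene. Of the TSF span of 2240 bp, 654 and 803 bp were covered in SWN-GFP val1 val2, against 1107 and 1268 bp in SWN-GFP. Both double-mutant libraries were below both SWN-GFP libraries, at 728.5 ± 105 bp and 1187.5 ± 114 bp (SD, n = 2 each, exact permutation p = 0.333). As a share of the span this was 29.2% and 35.8% in SWN-GFP val1 val2, against 49.4% and 56.6% in SWN-GFP. TSF stood alone: the nearest peak on the lower-coordinate side was at least 31674 bp away in every list, and on the other side, SWN-GFP replicate 1 excepted, at least 94130 bp away.

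MFT, the seed member, had a peak at the higher-coordinate end of its span in both SWN-GFP lists and no peak within 5 kb in either SWN-GFP val1 val2 list. Replicate 1 of SWN-GFP had it at chromosome 1, 6229587 to 6230306, and replicate 2 at 6229704 to 6230247. They had folds of 4.26 and 5.61, at percentiles 74.4 and 87.5, and summits under 47 and 71 fragments. Of the span of 2978 bp, 0 bp were covered in either SWN-GFP val1 val2 library, against 608 and 491 bp in SWN-GFP (exact permutation p = 0.333). These peaks overlapped no other annotated gene. A weaker lost region followed at 6231931 to 6232746, over the pseudogene AT1G18120. There the strongest SWN-GFP peaks had folds of 2.28 and 2.67, at percentiles 7.19 and 34.6. MFT was the only member called the same way on its span with all peaks, with lists of equal length, with peaks of fold 4 or more, with 100 bp of overlap required and with any 1 library left out, apart from BFT, which had no peak to call.

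TFL1, the repressor that opposes FT at the shoot tip, had the widest peaks of the family in all 4 lists, and the peak over the gene was wider and higher in rank in both double-mutant libraries. The peak over the gene lay at chromosome 5, 1024251 to 1026321 and 1024386 to 1026404 in SWN-GFP val1 val2, and at 1024703 to 1025946 and 1024414 to 1026052 in SWN-GFP. It was 2071 and 2019 bp long in SWN-GFP val1 val2 and 1244 and 1639 bp in SWN-GFP, with means of 2045 ± 36.8 bp and 1441.5 ± 279 bp (SD, n = 2 each, exact permutation p = 0.333). The fold was 7.34 and 5.65 in SWN-GFP val1 val2, against 4.64 and 3.69 in SWN-GFP. The summit held 85 and 75 fragments in SWN-GFP val1 val2, against 43 and 39 in SWN-GFP, values that are not known to be scaled to depth. Within its own list the peak ranked at percentiles 94.9 and 90.5 in SWN-GFP val1 val2 and 78.6 and 68.4 in SWN-GFP, so the genotypes did not overlap in length, fold, height or rank. These measures all describe the same peak. The strongest peak ranked higher in both double-mutant lists at 38.8% of kept protein-coding genes, and 36.6% of kept regions were covered more in both. The span itself, 1373 bp long, was covered whole in 3 lists and over 1170 bp in SWN-GFP replicate 1. It could hardly show a difference, and the covered length on the span differed by 101.5 bp only (exact permutation p = 1).

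A second kept region lay on the lower-coordinate side of TFL1, at chromosome 5, 1021537 to 1023907, where the table lists no gene. It was covered over 2248 and 2337 bp in SWN-GFP val1 val2, against 1648 and 1551 bp in SWN-GFP, again without overlap (exact permutation p = 0.333). In the double mutant the peaks reached nearer to TFL1: they ended 617 and 593 bp from the span in SWN-GFP val1 val2 and 1282 and 1240 bp from it in SWN-GFP. The summit of the strongest peak was 1426 and 1434 bp from the span in SWN-GFP val1 val2 and 2583 and 2534 bp from it in SWN-GFP. Folds differed little, at 4.42 and 4.28 in SWN-GFP val1 val2 and 4.12 and 4.13 in SWN-GFP. With 5 kb on either side, TFL1 had 4707 and 4356 bp under peaks in SWN-GFP val1 val2, against 2892 and 3190 bp in SWN-GFP. These sums include a peak of 393 bp on the higher-coordinate side, over the non-coding genes AT5G00940 and AT5G00330, that SWN-GFP val1 val2 replicate 1 alone had.

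ATC, a close relative of TFL1, was bound at one end of its span in all 4 lists and also at the other end in the double mutant. The kept region of the span, chromosome 2, 11774274 to 11774854, had folds of 3.00 and 2.79 in SWN-GFP val1 val2 and 2.88 and 3.23 in SWN-GFP. The gained region held peaks at 11773317 to 11774097 and 11773117 to 11773617 in the SWN-GFP val1 val2 lists, with folds of 3.49 and 3.33, at percentiles 67.4 and 67.2. Of the ATC span of 1560 bp, 1191 and 757 bp were covered in SWN-GFP val1 val2, against 320 and 413 bp in SWN-GFP. The means were 974 ± 307 bp and 366.5 ± 65.8 bp (SD, n = 2 each, exact permutation p = 0.333), and the libraries of the genotypes did not overlap.

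On the lower-coordinate side of ATC another region, 11770969 to 11771947, was kept and overlapped no gene. Its folds were 3.00 and 4.27 in SWN-GFP val1 val2 and 3.19 and 3.29 in SWN-GFP, and its covered length, 522 and 844 bp against 589 and 481 bp, overlapped between genotypes. At the far edge of the window, 4833 and 4761 bp from ATC, the double-mutant lists had a gained region, mostly over AT2G27590, with folds of 4.07 and 3.94.

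BFT, a further relative of TFL1, had no peak on its span of 996 bp in any list. The only peaks within 5 kb lay over the gene AT5G62060. In SWN-GFP val1 val2 they began 4026 and 4601 bp from BFT (replicate 1) and 3841 bp from it (replicate 2), and the SWN-GFP lists had none. Folds were 2.24 and 2.27 in replicate 1, the weaker at percentile 8.28, and 3.40 in replicate 2, at percentile 68.6. The call of BFT as gained in the wider window thus comes from peaks on a neighbour and, in 1 library, from peaks among the weakest of the list.

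**Figure D2:**
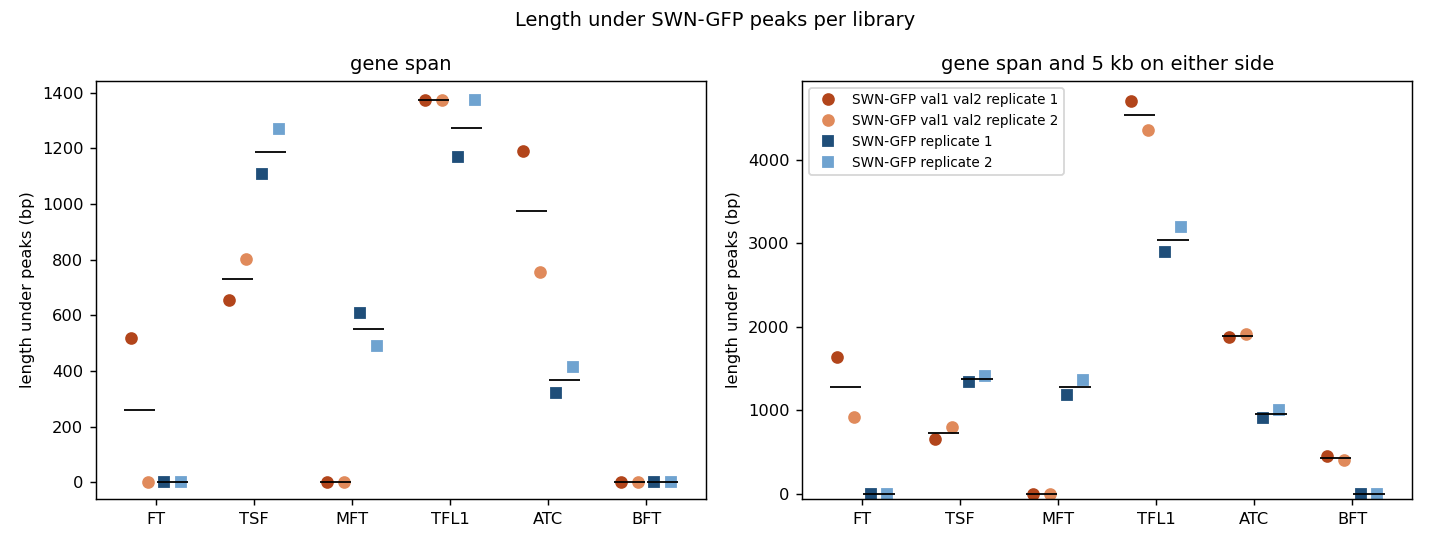
Covered length in bp for each family gene, on the gene span (left) and on the span with 5 kb on either side (right), with 1 point per library and a black line at the mean of each genotype. On the span, TSF and MFT are lower and ATC higher in both double-mutant libraries than in both SWN-GFP libraries; TFL1 separates only in the wider window, at 4707 and 4356 bp in SWN-GFP val1 val2 against 2892 and 3190 bp in SWN-GFP.

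Across the kept members, the genotypes thus differed both ways. Of the 3, ATC was covered more on its span in each double-mutant library, as were 31.2% of kept protein-coding genes, and TSF was covered less, as were 27.1%. The strongest peak ranked higher in both double-mutant lists at TFL1 and ATC, 2 of 3, against 38.8% of kept protein-coding genes. At ATC these were peaks at different places, in the gained region in SWN-GFP val1 val2 and in the kept region in SWN-GFP. Within the kept region of the ATC span the percentiles overlapped, at 52.7 and 48.0 in SWN-GFP val1 val2 and 40.0 and 57.7 in SWN-GFP. For TSF the ranks overlapped. The median difference in covered length over the 3, SWN-GFP val1 val2 minus SWN-GFP, was 101.5 bp, and over the 3468 kept protein-coding genes it was 8 bp, with quartiles of -149 and 182 bp. The differences at TSF (-459 bp) and ATC (607.5 bp) lay outside those quartiles. By definition, as many kept genes lie outside the quartiles as between them.

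Counted by region, 18 separate regions lay on or within 5 kb of the family. Of these 5 were kept, against 31.0% of the 13169 regions of all 4 lists, 5 were gained, against 12.3%, and 3 were lost, against 8.91%. The other 5 had a peak in 1 library only. The gained regions belonged to FT (2), ATC (2) and BFT (1), and the lost ones to MFT (2) and TSF (1). A gained region lay within 5 kb of 3 of 6 members, against 16.0% of protein-coding genes, and a lost region within 5 kb of 2 of 6, against 13.0%. Among the 5 kept regions, 2 of 5, both at TFL1, were covered more in each double-mutant library, against 36.6% of all kept regions, and 1 of 5, at TSF, was covered less, against 27.1%.

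**Figure D3:**
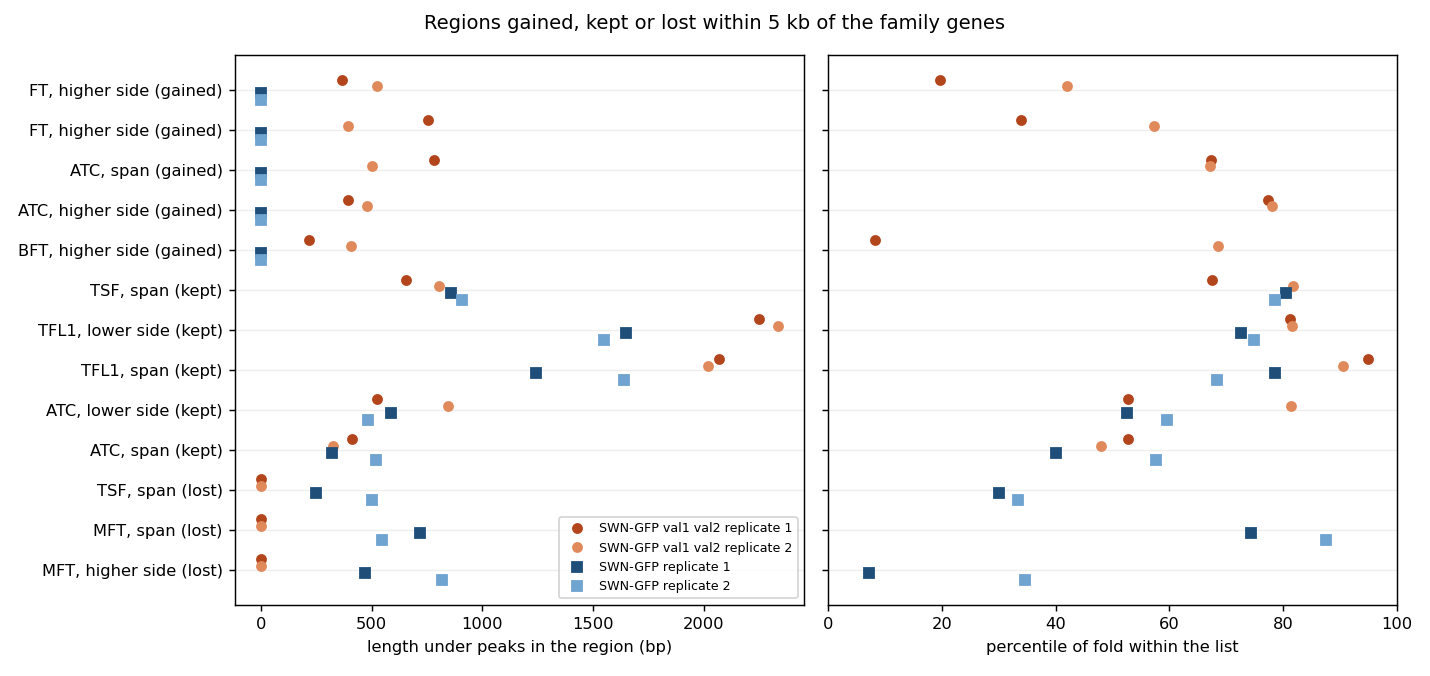
The 13 regions within 5 kb of a family gene that were gained, kept or lost, with 1 point per library. The left panel gives the covered length in bp, and the right panel the percentile of the strongest peak's fold within its own list, shown only where the list has a peak. Gained regions of FT rank at percentiles 19.6 to 57.3, the lost region on the MFT span at 74.4 and 87.5, and both TFL1 regions are longer in SWN-GFP val1 val2 than in SWN-GFP.

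Peaks between 5 and 10 kb from the spans are given apart, and most of those described here overlapped other genes. Past FT, a region over AT1G65481 and AT1G65483 was kept, with a strongest fold of 7.66 and 7.33 in SWN-GFP val1 val2 and 5.32 and 6.22 in SWN-GFP. The SWN-GFP peaks of this region began 7324 and 7098 bp from FT, and those lists had no nearer peak on that side. The covered length of the region, 2551 and 2738 bp in SWN-GFP val1 val2, against 2720 and 2914 bp in SWN-GFP, overlapped between genotypes. On the lower-coordinate side of TFL1, a kept region over AT5G03810 and AT5G03820 went the opposite way to TFL1. Its strongest fold was 3.51 and 2.93 in SWN-GFP val1 val2, against 5.80 and 6.63 in SWN-GFP, and its covered length was 2373 and 3199 bp, against 3684 and 3674 bp. On that side of BFT, just outside the window at 5621 to 5687 bp, all 4 lists had a peak over the heat shock factor gene HSFB2A, with folds of 5.15 and 4.24 in SWN-GFP val1 val2 and 8.44 and 7.92 in SWN-GFP. On the same side of MFT, weak peaks near the microRNA gene MIR159b had folds of 2.27 to 2.87 in SWN-GFP val1 val2 and 2.37 in SWN-GFP replicate 1, with none in SWN-GFP replicate 2.

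The genes that act with the family were described from 6 lists with 46 genes in all. On their spans 20 were kept, 0 lost, 1 gained, 5 mixed, with a peak in some other combination of lists, and 20 had no peak in any list. Over all protein-coding genes 12.6% were kept, 2.70% lost and 3.61% gained, so the counts of lost and gained genes in lists of this size were near the share over all genes. Of the 10 FT activators 7 had no peak in any list, among them CO, the zinc finger factor that switches FT on in long days, and GI, which acts upstream of CO. The share of all protein-coding genes without a peak was not computed. Counts of genes without a peak are therefore a description only, and show nothing particular to these lists. PIF4, a bHLH factor that activates FT in warmth, was gained, with 408 and 407 bp covered and folds of 3.14 and 2.71 in SWN-GFP val1 val2 and no peak in SWN-GFP. NF-YB3, a subunit of a CCAAT-binding complex that works with CO, was kept, with folds of 9.03 and 9.44 in SWN-GFP val1 val2 and 2.79 and 3.82 in SWN-GFP.

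Of the 15 FT repressors 7 were kept, against 12.6% of protein-coding genes. Of these 7, 5 were covered more in each double-mutant library, against 31.2% of kept protein-coding genes, and 1 less, against 27.1%. The one covered less was FLC, a MADS-box repressor of FT, with 1503 and 1716 bp in SWN-GFP val1 val2, against 6067 bp in each SWN-GFP library. Those covered more included SVP, the MADS-box partner of FLC, with 2087 and 2254 bp in SWN-GFP val1 val2, against 1066 and 1055 bp in SWN-GFP. They also included TEM2, an AP2 and B3 domain repressor, with 1261 and 844 bp in SWN-GFP val1 val2, against 258 and 709 bp in SWN-GFP. The median difference over the 7 was 284 bp, against 8 bp over all kept protein-coding genes.

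Of the 5 partners and transport genes, FD among them, 4 had no peak, again without a share over all genes to set beside it. BRC1, a TCP factor of axillary buds that binds FT, was kept, with 2045 and 2192 bp covered in SWN-GFP val1 val2 and 2407 and 2325 bp in SWN-GFP. Of the 9 targets of FT and TFL1 6 were kept, against 12.6% of protein-coding genes. Of these 6, 4 were covered less in each double-mutant library, against 27.1% of kept protein-coding genes, and 1 more, against 31.2%, with a median difference of -231.5 bp. CAL, a MADS-box floral meristem gene, was the one covered more, with 1983 and 2256 bp in SWN-GFP val1 val2, against 1147 and 847 bp in SWN-GFP. SOC1, the MADS-box integrator of flowering signals, had 1450 and 1469 bp under peaks in SWN-GFP val1 val2 and 2490 and 1924 bp in SWN-GFP. FUL, a MADS-box gene of the inflorescence meristem, was covered over 1911 and 2502 bp in SWN-GFP val1 val2, against 2513 and 2763 bp in SWN-GFP. The folds of SOC1 and FUL were lower in both double-mutant libraries. LFY and SEP3 were also covered less, but their folds overlapped between genotypes. At LFY they were 10.5 and 11.6 in SWN-GFP val1 val2 and 10.6 and 9.81 in SWN-GFP. At SEP3 they were 12.9 and 11.4 in SWN-GFP val1 val2 and 12.9 and 10.8 in SWN-GFP.

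All 3 TFL1 regulators were kept, against 12.6% of protein-coding genes. AGL14, a MADS-box activator of TFL1, was covered over 1495 and 1330 bp in SWN-GFP val1 val2, against 1365 and 1194 bp in SWN-GFP, which overlapped. AGL24 was covered over 2220 and 2209 bp in SWN-GFP val1 val2, against 732 and 959 bp in SWN-GFP, and SEP4 over 816 and 949 bp in SWN-GFP val1 val2, against 1149 and 1044 bp in SWN-GFP. Both are MADS-box genes whose products repress TFL1 in young flowers. Of the 4 MFT regulators 2 were kept, against the same 12.6%. ABI3, the B3 factor of seed maturation, was covered over 723 and 1247 bp in SWN-GFP val1 val2, against 3434 and 3689 bp in SWN-GFP. PIF1, a bHLH repressor of germination in the dark, was covered over 1479 and 1517 bp in SWN-GFP val1 val2, against 220 and 244 bp in SWN-GFP. RGL2, a DELLA repressor of germination, was mixed, with 563 and 462 bp in SWN-GFP val1 val2, against 0 and 254 bp in SWN-GFP.

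**Figure D4:**
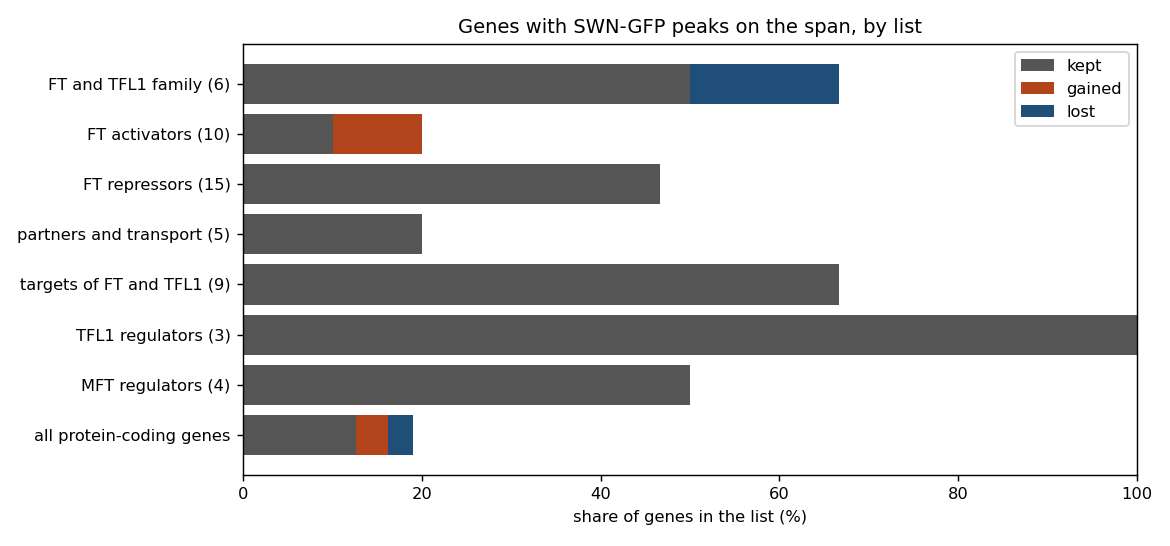
Share of genes in each list, in percent, that were kept, gained or lost on the gene span, with the number of genes in brackets and all 27444 protein-coding genes at the bottom. The lost member of the family is MFT, and the gained gene of the FT activators is PIF4; over all protein-coding genes 2.70% were lost and 3.61% gained.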

How the data were processed

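Peaks were called per library, 1 list for each of the 4 GFP precipitations. Bowtie2, SAMtools, Picard and MACS2, with build TAIR10, are named in the submitters' processing notes; versions, settings and the control of each call are not given in those notes. The files carry no column names, and their 10 columns were taken in the order MACS2 writes. The deposited pileup is a signal, in whole fragments over the summit, not known to be scaled to depth. The −log10 p and −log10 q values and the fold, a ratio, are the authors' own. For the percentiles, peaks were ranked by fold within a list. The lists of equal length were not cut by that rank. Folds of different lists are set side by side as the authors' values, and a fold of at least 4 was 1 alternative; whether folds are comparable between lists is not known. Depth is unknown, so no counting interval is given.

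Names and spans of genes were taken from a RefSeq table of assembly TAIR10.1, whose coordinates are not printed and which gave no strand, so sides are named by coordinate. Of 46 symbols in the pathway lists 45 were found in it, CDF5 by locus tag only. A gene counted as bound when 1 bp or more of its span lay under a peak. Overlapping peaks of the 4 lists were merged into regions. All 6 members are named, as are neighbours under their peaks. In the pathway lists, genes lost or gained and up to 3 examples by change of covered length are named. CO, GI, FD, LFY and SEP3 were added after their values were seen. The members and lists were chosen with earlier results of these data known. Alternatives were wider windows, a fold of at least 4, lists of equal length, 100 bp of overlap and leaving out each library. Scripts ran in Python 3.11.15 with numpy, pandas and scipy 1.17.1 and were tested on simulated peak lists.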

Additional observations from a re-analysis of the deposited data

How the results depend on the processing

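The calls on the span held with 1000 bp on either side, with lists of equal length and with 100 bp of overlap required. With a fold of at least 4 the members kept on the span went to 0, since TSF and TFL1 each missed it in 1 or more lists and ATC in all. The members gained numbered 2 with 5000 bp on either side (FT and BFT) and 1 without SWN-GFP val1 val2 replicate 2 (FT). Leaving out 1 library at a time gave 0 to 1 gained, 3 kept and 1 lost. Within 5 kb, in alternatives chosen after seeing the data, a fold of at least 4 left 1 member kept (TFL1), 1 gained (ATC) and 1 lost (MFT). That call of ATC pools peaks at different places, 11779579 in SWN-GFP val1 val2 replicate 1 and 11771104 in replicate 2, and no single region of ATC was gained at that fold. In the same window equal lengths and leaving out any library changed no call. The difference in covered length kept its sign in every alternative that gave a value other than 0. With 1 library left out it ranged from 0 to 519 bp at FT, 0 to 203 bp at TFL1, -539.5 to -378.5 bp at TSF, 390.5 to 824.5 bp at ATC and -608 to -491 bp at MFT.

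Replicate numbers are shared between genotypes but nothing in the labels pairs them. With the replicate block, an exact sign-flip test, the differences were the same, 259.5 bp at FT, -459 bp at TSF, 101.5 bp at TFL1, 607.5 bp at ATC and -549.5 bp at MFT, and the smallest possible p is 0.5, so no call could change. Depth is unknown, and its part in the weak peaks of either genotype (the gained regions of FT and BFT, the lost regions beside MFT and on TSF) was not tested beyond the lists of equal length, which changed no call. Cutting a list only removes peaks, so it could add none to the double-mutant lists at the lost regions. The shortest list was that of SWN-GFP replicate 1. For the lost regions the equal lengths therefore say little about depth.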

Other observations

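The genes most like each member were those with the smallest summed absolute difference, over the 4 lists, in the percent of the span under peaks, among protein-coding genes with a peak in the same lists. For MFT, with 0% and 0% covered in SWN-GFP val1 val2 and 20.4% and 16.5% in SWN-GFP, they were AT2G21510, DJ1A and AT1G79480, at summed differences of 1.35, 1.77 and 2.24 percentage points among 739 genes. For TSF they were AT5G48657, AT1G55430 and FLA12, at 3.55, 10.1 and 11.1 points among 3467 genes. For ATC they were AT3G56220, AT1G26800 and AT4G08910, at 12.9, 16.3 and 20.8 points. For TFL1, whose span was covered whole in 3 lists, they were AT3G30580, AT5G17345 and AT3G10585, at 0.570, 2.04 and 2.74 points. For FT, with a peak on the span in SWN-GFP val1 val2 replicate 1 only, they were AT3G20530, ATAUX2-11 and AT3G11380. Their summed differences were 0.0415, 0.0875 and 0.114 points among 431 genes. BFT had no peak to match. No other family member was among the genes named. For MFT and FT this was fixed in advance, since no other member had peaks in the same lists. With 4 values a gene, such matches are a description only.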
